A study of Mus musculus with 16 samples.

Results

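Krüppel-like factors were followed through skeletal muscle RNA-seq of mice that carried a CHCHD4 transgene (labelled CHCHD4 Tg, Tg in what follows) and of wild-type (WT) mice. The members were 10 of the 55487 gene rows of the expression table, taken by symbol: Klf2, Klf4, Klf6 and Klf10 as early-response members, and Klf3, Klf5, Klf7, Klf9, Klf13 and Klf15 as other members. All 10 passed the filter on low counts, which left 17490 genes. Each genotype was sampled with treadmill training and without, in 4 groups of 4 libraries: Tg trained, Tg untrained, WT trained and WT untrained. The design text sets out to relate CHCHD4, a protein of the mitochondrial intermembrane space, and exercise training to the muscle transcriptome. The muscle, strain, sex, age, promoter of the transgene and length of training are not in the labels. Nor do these tell whether each library is 1 animal, and p-values therefore rest on the spread between these libraries, which may be technical.

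The Krüppel-like factors are zinc finger transcription factors that bind GC-rich and CACCC elements, through fingers at the C terminus that are much alike across the family. Klf2 and Klf4 are known from endothelium, where laminar blood flow induces them through the kinase encoded by Mapk7 and the MEF2 factors, and Klf4, Klf6 and Klf10 are also induced quickly by growth factors, cytokines or injury. Klf9 and Klf15 are induced by glucocorticoids, and Klf15 governs amino acid and lipid use in muscle, with levels that vary over the day. In bulk tissue, fewer cells of a type and less RNA per cell cannot be told apart.

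Levels are CPM, counts relative to the library's total after TMM scaling, and a log2 fold change (log2FC) comes with a standard error (SE) from edgeR's quasi-likelihood model of all 16 libraries. Called genes are those with an adjusted p under 0.05 (Benjamini-Hochberg, over the 17490 genes). Library totals lay between 40888325 and 61703724 counts. Genes of skeletal muscle fibres (Acta1, Ckm, Myh4 and 6 more) summed to between 128300 and 195300 CPM in a library, none of them at 0. Chchd4 lay between 18.1 and 22.2 CPM in the Tg libraries and between 6.88 and 8.98 CPM in the WT libraries, so each library matched its genotype label. WT untrained replicate 2 stood apart from the other 15 libraries: its TMM factor was 1.285 where the others had 0.924 to 1.105, and its fibre genes had the lowest sum, 128300 CPM. Alb, a liver transcript, exceeded 10 CPM in that library, in Tg untrained replicate 2 and in WT trained replicate 4.

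Klf2, a gene at chr8:72319033-72321656 on the plus strand (GRCm38), was the single member called by edgeR in any comparison. It rose in untrained Tg muscle, to 10.8, 9.89, 13.6 and 16.4 CPM in Tg untrained replicates 1 to 4, against 4.66, 4.46, 5.97 and 5.80 CPM in WT untrained replicates 1 to 4. All 4 Tg libraries lay above all 4 WT libraries. The means were 12.7 ± 2.93 CPM in Tg and 5.22 ± 0.772 CPM in WT (SD, n = 4 each), a log2FC of 1.28 (SE 0.216, 2.43-fold, adjusted p = 0.0138, edgeR). Of all genes tested, 0.743% were called in this comparison and 0.497% were called higher. The call held without any single library (adjusted p of at most 0.046) and was lost without the 4 libraries above 10 CPM of Myh7, the slow-twitch myosin gene, namely Tg untrained replicates 2 and 3, WT trained replicate 3 and WT untrained replicate 2 (log2FC 1.31, adjusted p = 0.0677).

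Klf4, at chr4:55527143-55532466 on the minus strand, which shares endothelial targets with Klf2 and maintains epithelial and stem cell states, was also highest in untrained Tg muscle. It measured 10.8, 11.7, 18.6 and 19.97 CPM in Tg untrained replicates 1 to 4, against 8.31, 8.34, 8.89 and 8.06 CPM in WT untrained replicates 1 to 4. The groups did not overlap, and the untrained WT libraries lay close together while the Tg libraries formed a lower and a higher pair. The log2FC was 0.87 (SE 0.243, adjusted p = 0.108, edgeR) and was not called. DESeq2 called it (adjusted p = 0.0287), among 445 genes, as did edgeR without WT trained replicate 2 (adjusted p = 0.0376), among 138 genes. Across all alternatives the adjusted p ran from 0.0287 to 0.297.

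Klf2 and Klf4 are the members whose groups stood furthest apart, and Klf9 the one whose level varied least, so the sequences upstream of these 3 genes are shown, each 5′ to 3′ on the strand of the gene. They come from RefSeq windows of GRCm38.p6, which run from 250 bases before to 50 after the start of the gene, and are printed up to the first annotated start: Klf2 at chr8:72318812-72319032 on the plus strand, Klf4 at chr4:55532476-55532725 on the minus strand and Klf9 at chr19:23140976-23141225 on the plus strand. Capitals mark a MEF2 motif and the core of the cyclic AMP response element, TGACG, on either strand.
Klf2: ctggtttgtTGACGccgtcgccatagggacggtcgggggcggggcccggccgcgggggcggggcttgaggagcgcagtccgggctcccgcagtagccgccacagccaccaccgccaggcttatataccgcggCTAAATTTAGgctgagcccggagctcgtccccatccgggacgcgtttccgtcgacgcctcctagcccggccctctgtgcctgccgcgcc
Klf4: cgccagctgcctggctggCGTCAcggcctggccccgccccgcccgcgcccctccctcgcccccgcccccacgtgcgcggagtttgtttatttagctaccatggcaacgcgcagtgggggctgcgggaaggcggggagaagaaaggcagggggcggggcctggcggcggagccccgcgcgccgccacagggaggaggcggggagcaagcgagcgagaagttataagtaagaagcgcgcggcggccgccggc
Klf9: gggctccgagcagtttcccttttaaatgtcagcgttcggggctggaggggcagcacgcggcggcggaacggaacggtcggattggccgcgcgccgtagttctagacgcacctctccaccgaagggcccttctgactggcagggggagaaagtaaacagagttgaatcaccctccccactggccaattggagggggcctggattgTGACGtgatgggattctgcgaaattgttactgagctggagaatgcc
The windows of 8 of the 10 members were found, Klf5 and Klf10 being the others, and motifs were sought on both strands of the whole 300 bases. The MEF2 motif was in 1 of the 8, Klf2, at position -118 from the RefSeq start, and in 0.557% of all 32851 windows. TGACG was in 6 of the 8 and in 20.8% of all windows. The GC box GGGCGG, a site of the Sp and Krüppel-like factors themselves, was in 7 of the 8 windows, all but that of Klf9, and in 35.7% of all. GC content was 58.3% to 76.7% in the members' windows, against a median of 52.7% over all windows. The serum response motif known as the CArG box was in none of the 8 and in 1.63% of all windows. These matches describe letters in a window and not binding.

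Both transcripts measured lower in all 4 trained Tg libraries than in any untrained Tg library, which edgeR's test over all genes did not call. Klf4 measured 6.87, 5.97, 4.37 and 6.02 CPM in Tg trained replicates 1 to 4, against the 10.8 to 19.97 CPM of Tg untrained libraries given above. All 4 trained libraries lay below all 4 untrained ones. The means were 5.81 ± 1.04 CPM in trained and 15.3 ± 4.70 CPM in untrained Tg muscle (SD, n = 4 each), a log2FC of -1.40 (SE 0.248, adjusted p = 0.132, edgeR), which was not called although only 2 of the 17490 genes had a smaller p. Klf2 measured 5.88, 6.70, 5.25 and 8 CPM in Tg trained replicates 1 to 4. These too lay below every untrained Tg library, with a log2FC of -0.97 (SE 0.213, adjusted p = 0.14, edgeR). Klf6, a factor induced in tissue injury and encoded at chr13:5861482-5870394 on the plus strand, measured 36.6, 30.1, 29.7 and 31.3 CPM in Tg trained libraries, against 38.4, 39.9, 47.6 and 44.7 CPM in Tg untrained libraries, again without overlap (log2FC -0.42, SE 0.116, adjusted p = 0.209, edgeR).

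No gene of the table and none of the 10 members was called for training in Tg muscle by edgeR (0% of genes). At an unadjusted p under 0.05, 3 members were lower (Klf2, Klf4 and Klf6), against 6.81% of all genes. DESeq2 called 2 members, Klf2 (adjusted p = 0.00629) and Klf4 (adjusted p = 0.000137), and limma-voom called 0. With only the 8 Tg libraries in the edgeR fit, Klf2, Klf4 and Klf6 were called (adjusted p of 0.0315, 0.0273 and 0.0497). Without WT untrained replicate 2, Klf2 and Klf4 were called (adjusted p of 0.0496 and 0.039). Klf4 alone was called without WT trained replicate 2 (adjusted p = 0.0235).

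**Figure D1:**
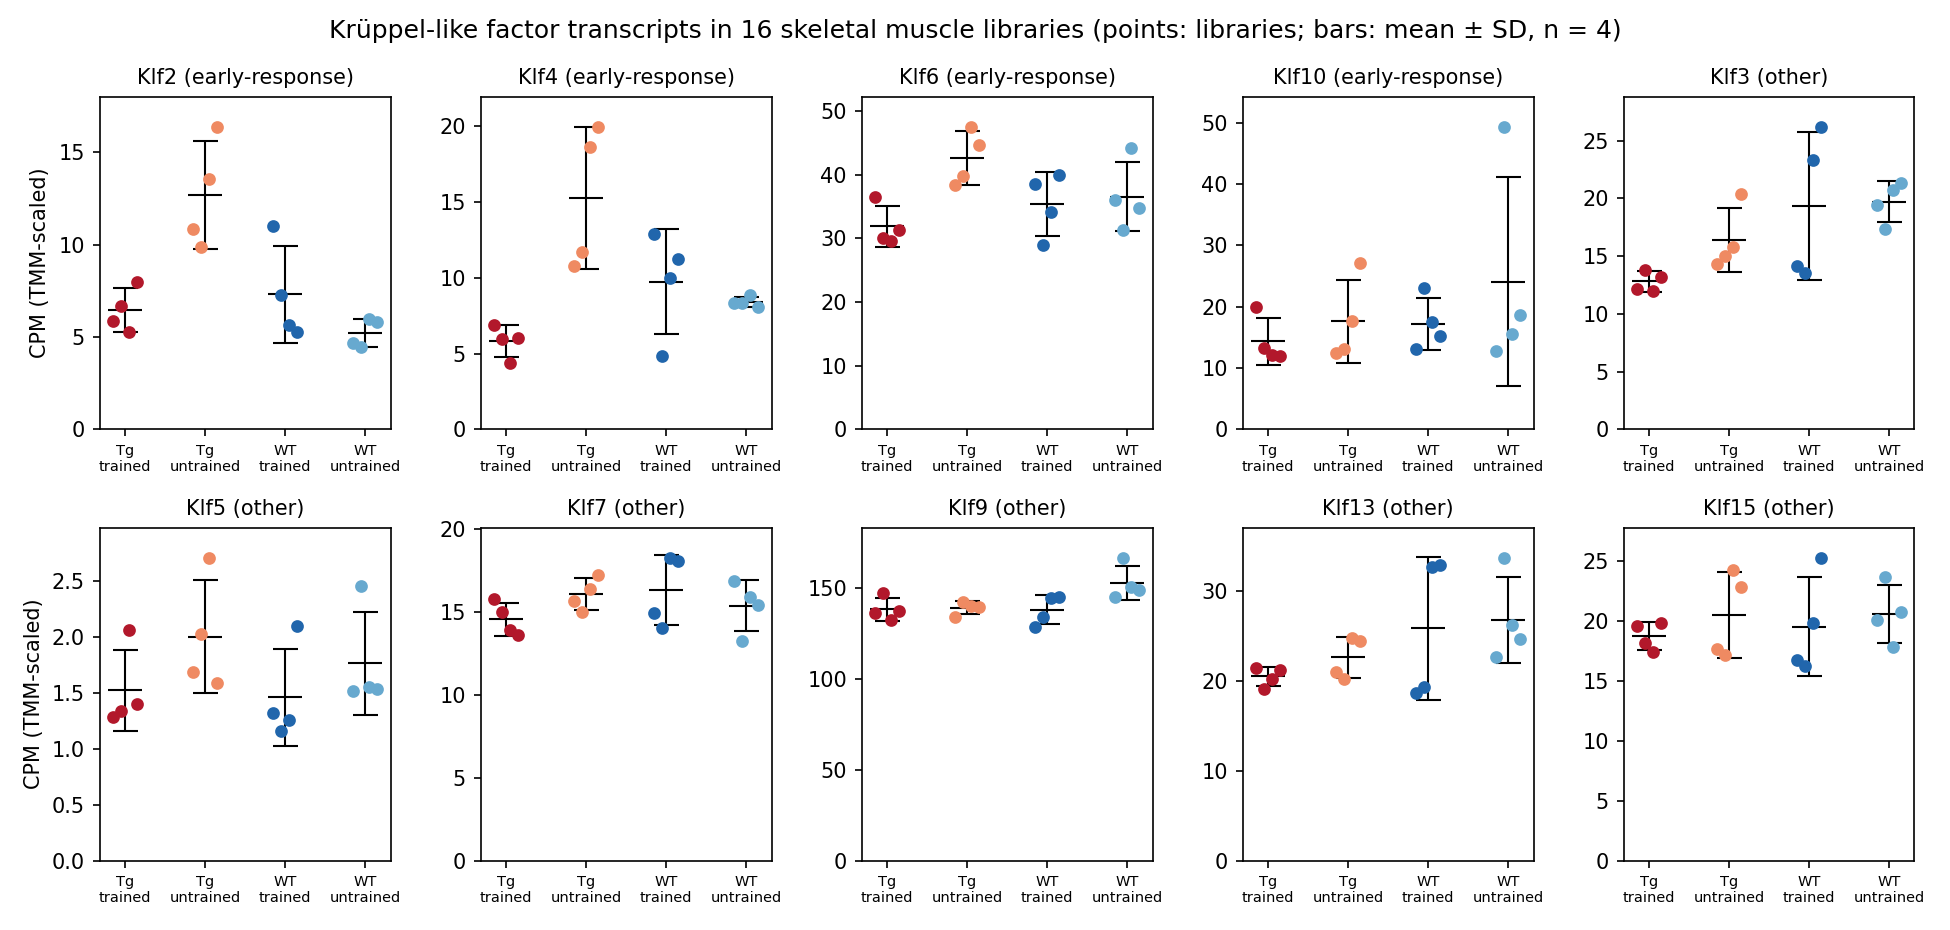
Level of each of the 10 Krüppel-like factor transcripts in CPM (linear axis from 0) in the 4 libraries of each group, with the mean and SD as bars. For Klf2 and Klf4 the 4 untrained Tg libraries lie above all trained Tg and all untrained WT libraries, Klf10 has 1 high library among WT untrained (49.4 CPM), and Klf13 has a low and a high pair in WT trained libraries.

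In WT muscle training went with no called member (0 in edgeR, DESeq2 and limma-voom; 0.143% of all genes were called in edgeR). At an unadjusted p under 0.05 there were 2 members, Klf2 higher and Klf9 lower, against 4.76% of all genes higher and 4.79% lower. Klf2 measured 11.03, 7.29, 5.66 and 5.24 CPM in WT trained libraries, so replicate 1 was in the range of untrained Tg muscle while replicates 3 and 4 lay within that of WT untrained libraries. The log2FC was 0.49 (SE 0.219, adjusted p = 0.5, edgeR), and 0.22 without WT trained replicate 1. Klf4 measured 12.9, 4.84, 10 and 11.2 CPM in WT trained libraries, a spread on both sides of the 8.06 to 8.89 CPM of WT untrained libraries (log2FC 0.22, SE 0.245, adjusted p = 0.806, edgeR). Replicate 2 was the lowest of the WT trained libraries in Klf4 and in Klf6, at 29.0 CPM.

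Whether the training responses differed between the genotypes was tested as an interaction. The difference of log2FC (Tg minus WT) was -1.47 for Klf2 (SE 0.305, adjusted p = 0.159), -1.62 for Klf4 (SE 0.348, adjusted p = 0.202) and -0.37 for Klf6 (SE 0.163, adjusted p = 0.797), with edgeR, and none of the 10 members was called, while 0.0515% of all genes were. At an unadjusted p under 0.05 these 3 members had lower values, against 3.6% of all genes. DESeq2 called Klf2 (adjusted p = 0.00299) and Klf4 (adjusted p = 0.00414), among 35 genes. From limma-voom came 0 members and 9 genes. Without WT trained replicate 2, edgeR called Klf4 (adjusted p = 0.013), among 12 genes. Between the trained groups no member was called (0 in edgeR, DESeq2 and limma-voom, against 0.0114% of all genes in edgeR), and 2 had an unadjusted p under 0.05, both lower in Tg, where 4.73% of all genes were. These were Klf4 (log2FC -0.75, SE 0.25, adjusted p = 0.436, edgeR) and Klf3 (log2FC -0.59, SE 0.178, adjusted p = 0.38, edgeR).

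**Figure D2:**
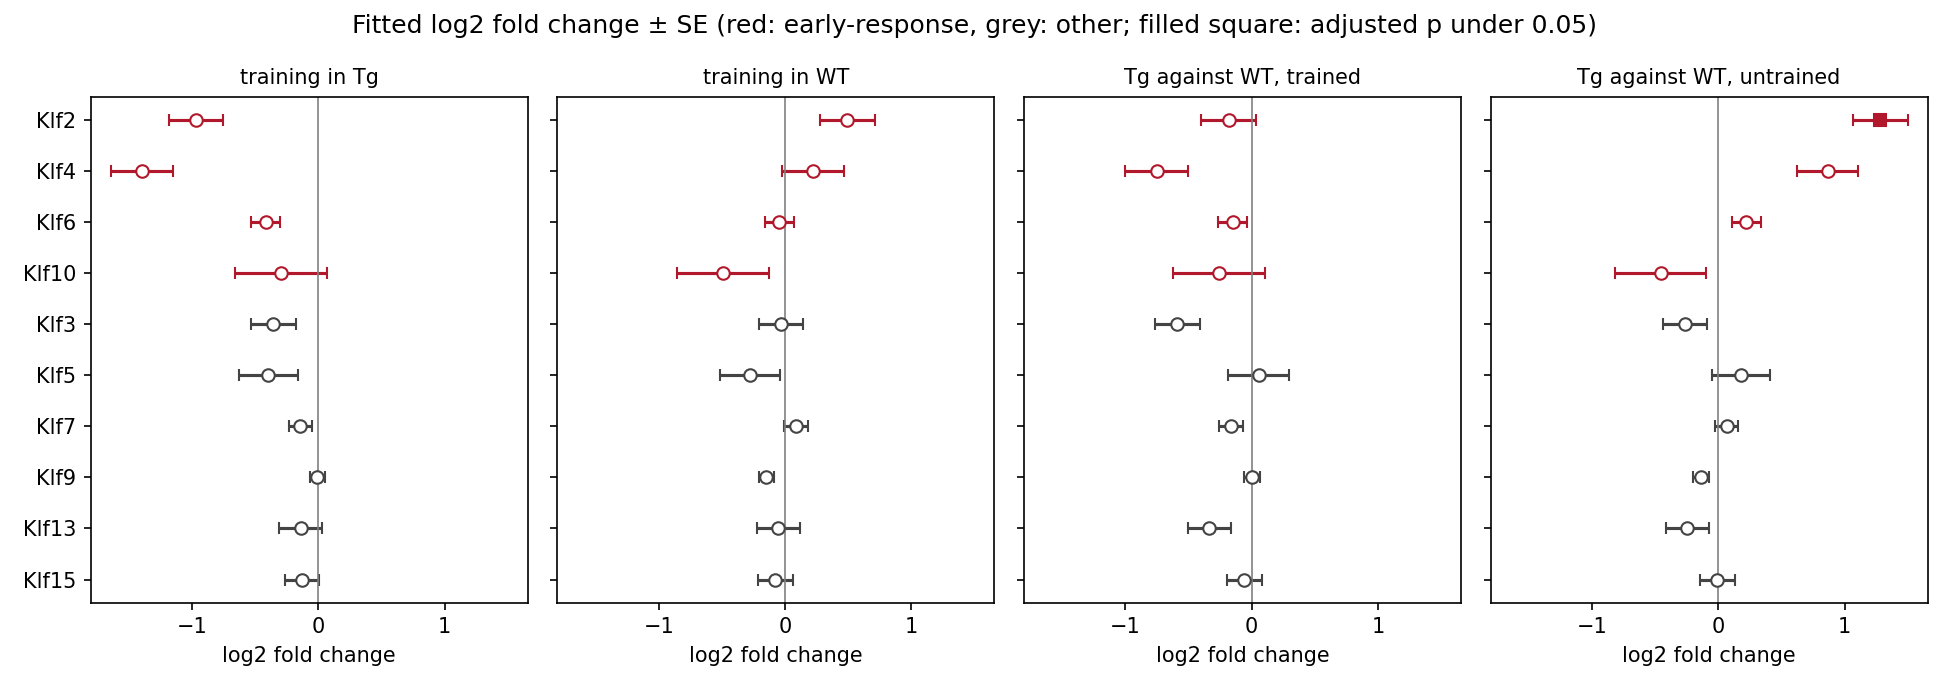
Fitted log2 fold change ± SE (horizontal axis) of each member in 4 comparisons, early-response members in red and other members in grey. A filled square marks an adjusted p under 0.05, which Klf2 alone reached, in untrained Tg against untrained WT muscle (log2FC 1.28).

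Klf10, at chr15:38291463-38300706 on the minus strand, a repressor induced early by transforming growth factor beta, had overlapping groups in every comparison. It measured 19.99, 13.3, 12.1 and 12.02 CPM in Tg trained, 12.5, 13.2, 17.7 and 27.1 CPM in Tg untrained, 13.1, 23.0, 17.5 and 15.3 CPM in WT trained and 12.8, 49.4, 15.5 and 18.7 CPM in WT untrained libraries. The highest value belonged to the WT untrained library that stood apart. The log2FC in untrained Tg against untrained WT muscle was -0.45 (SE 0.36) with that library and 0.17 without it. Its within-group SD on the log2 scale was 0.558, larger than that of 93% of the genes tested.

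As a class, the 4 early-response members had a median log2FC of -0.70 for training in Tg muscle (range -1.40 to -0.30, 4 of 4 negative), against a median of -0.14 for the 6 other members (range -0.40 to -0.01, 6 of 6 negative) and 0.00 for all genes tested. In untrained Tg against WT muscle the early-response median was 0.54 (3 of 4 positive) and the other-member median -0.07 (2 of 6 positive). For training in WT muscle the medians were 0.09 (2 of 4 positive) and -0.07 (1 of 6 positive), and in trained Tg against WT muscle -0.22 (4 of 4 negative) and -0.11 (4 of 6 negative). The comparisons share groups, so these medians are not independent of each other. Among members whose groups did not overlap, Klf2, Klf4, Klf6 and Klf3 were lower for training in Tg (4 of 10, against 4.53% of all genes), Klf2 and Klf4 were higher in untrained Tg (2 of 10, against 4.33%), and Klf9 was lower there (1 of 10, against 4.16%) and for training in WT (1 of 10, against 2.03%). The negative sign of Klf10 in untrained Tg against WT muscle rested on WT untrained replicate 2, without which all 4 early-response members were positive there.

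**Figure D3:**
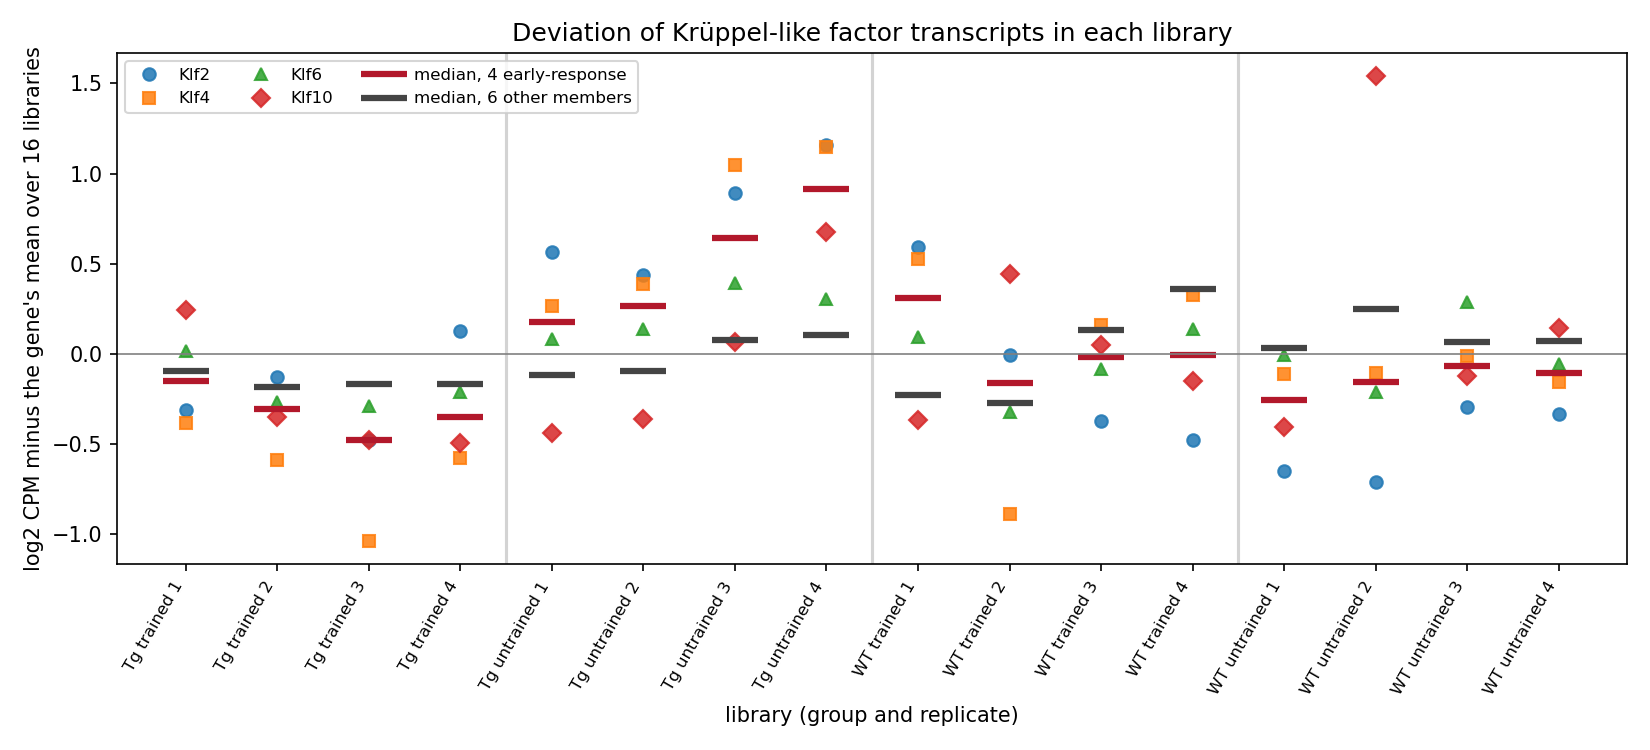
Deviation of log2 CPM from each gene's mean over the 16 libraries (vertical axis), by library, for the 4 early-response members, with bars at the median of the 4 early-response and of the 6 other members. The early-response bar is highest in Tg untrained replicates 3 and 4 (0.641 and 0.916). It is below 0 in the 4 Tg trained libraries (-0.15 to -0.479) and in the 4 WT untrained libraries (-0.0693 to -0.257). In WT trained libraries it is above 0 in replicate 1 (0.307) and below 0 in the others (-0.00459 to -0.164).

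Klf9, at chr19:23141226-23168134 on the plus strand, was the most abundant member and the least variable. Per kilobase of exon it averaged 28.7 ± 1.32 CPM in Tg trained, 28.9 ± 0.729 in Tg untrained, 28.6 ± 1.66 in WT trained and 31.7 ± 1.95 in WT untrained muscle (SD, n = 4 each). On that scale the next were Klf6, at 7.27 ± 0.726, 9.71 ± 0.969, 8.07 ± 1.13 and 8.33 ± 1.24 CPM per kilobase, and Klf15, at 6.71 ± 0.41, 7.34 ± 1.29, 6.99 ± 1.48 and 7.38 ± 0.867, in the same order of groups, and these 2 overlapped within their spread in each group but Tg untrained, by mean ± SD. Klf2, Klf4, Klf10, Klf13, Klf7 and Klf3 had group means between 1.14 and 6.86 CPM per kilobase, in an order that differed between groups, and Klf5, at 0.281 to 0.385, was lowest in every group. The mean of Klf2 lay above that of Klf10 in Tg trained (3.498 ± 0.642 against 3.436 ± 0.909) and Tg untrained muscle (6.86 ± 1.585 against 4.21 ± 1.609). It lay below that of Klf10 in WT trained (3.96 ± 1.427 against 4.12 ± 1.015) and WT untrained muscle (2.83 ± 0.418 against 5.77 ± 4.073). By mean ± SD, Klf2 and Klf10 overlapped in every group. Klf9 lay between 145.1 and 166.3 CPM in WT untrained libraries and between 128.4 and 147.2 CPM in the other 12. Its log2FC was -0.15 for training in WT (SE 0.061, adjusted p = 0.473, edgeR) and -0.14 in untrained Tg against WT muscle (SE 0.061, adjusted p = 0.288, edgeR), comparisons that share the WT untrained libraries, and -0.01 for training in Tg. Its within-group SD of 0.071 on the log2 scale was larger than that of 5.17% of the genes tested.

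Klf15 and Klf13 also overlapped between groups in every comparison. Klf15 measured 19.6, 18.2, 17.4 and 19.8 CPM in Tg trained, 17.7, 17.1, 24.2 and 22.9 CPM in Tg untrained, 16.8, 16.3, 19.8 and 25.3 CPM in WT trained and 20.1, 23.7, 17.9 and 20.8 CPM in WT untrained libraries. Its log2FC lay between -0.13 and -0.01 over the 4 pairwise comparisons (adjusted p of 0.781 and above, edgeR). Klf13, a repressor that recruits Sin3 corepressors, measured 18.6, 19.3, 32.6 and 32.8 CPM in WT trained libraries, so that replicates 1 and 2 lay below all WT untrained libraries (22.7, 33.6, 26.2 and 24.6 CPM in replicates 1 to 4) and replicates 3 and 4 above 3 of those 4. In Tg muscle it lay between 19.1 and 21.5 CPM with training and between 20.2 and 24.7 CPM without. WT trained replicate 4 was one of the libraries with Alb, and replicate 3 held 29.7 CPM of Myh7, against 2.25 and 2.22 CPM in replicates 1 and 2; the part of either in the Klf13 levels was not tested.

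Klf3, a repressor that recruits C-terminal binding proteins, had the same split, at 14.2, 13.6, 23.3 and 26.2 CPM in WT trained libraries. It measured 12.2, 13.8, 11.96 and 13.2 CPM in Tg trained, 14.3, 14.99, 15.8 and 20.4 CPM in Tg untrained and 19.4, 17.3, 20.8 and 21.3 CPM in WT untrained libraries. Trained Tg libraries lay below all untrained Tg and all untrained WT libraries. None of its comparisons was called, the largest being trained Tg against trained WT muscle given above, which was -0.41 without WT trained replicate 4. All its values were fractional, since RSEM divides shared reads, so its level is less certain. Of its exons, 404 bases overlap Gm20033 on the opposite strand, and whether the shared reads lie there was not tested. Klf7, known from neurons, lay between 13.2 and 18.2 CPM over all 16 libraries. Its exons overlap Gm26649 on the opposite strand by 3196 bases, where reads cannot be told apart without strand. Yet 0% of the Klf7 values were fractional, so they showed no sign of divided reads. Klf5, known from smooth muscle and epithelia, was the scarcest member, with 48 to 149 counts in a library, 1.29 to 2.07 CPM in Tg trained, 1.59 to 2.71 CPM in Tg untrained, 1.16 to 2.10 CPM in WT trained and 1.52 to 2.45 CPM in WT untrained libraries.

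Within groups, Pearson r between 2 members ran from -0.458 to 0.785, with a median of 0.381 and 33 of 45 pairs positive. Over the 45 pairs of members, deviations of log2 CPM from the group means were compared across the 16 libraries with 100000 permutations within groups. Klf4 and Klf6 varied together (Pearson r = 0.759, two-sided permutation p = 0.00032, adjusted over the 45 pairs 0.0144; Spearman rho = 0.794, permutation p = 0.00044, adjusted 0.0198), and r was 0.636 without the 2 libraries farthest from the median of Klf4. It was the 1 pair of the 45 with an adjusted p under 0.05. Klf13 and Klf15 had r = 0.785 (permutation p = 0.00602, adjusted 0.135; rho = 0.797, permutation p = 0.00536, adjusted 0.121; r = 0.78 without the 2 libraries farthest from the median of Klf13). Klf2 and Klf4, whose groups stood apart in the same comparisons, had r = 0.383 (permutation p = 0.326, adjusted 0.588; rho = 0.397, permutation p = 0.217, adjusted 0.489), and r = 0.0671 without the 2 libraries farthest from the median of Klf2. Pairs of early-response members had a median r of 0.174 (4 of 6 positive, lowest -0.235), pairs of other members 0.509 (14 of 15 positive) and pairs of an early-response with another member 0.169 (15 of 24 positive). All members of a library share its TMM factor.

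**Figure D4:**
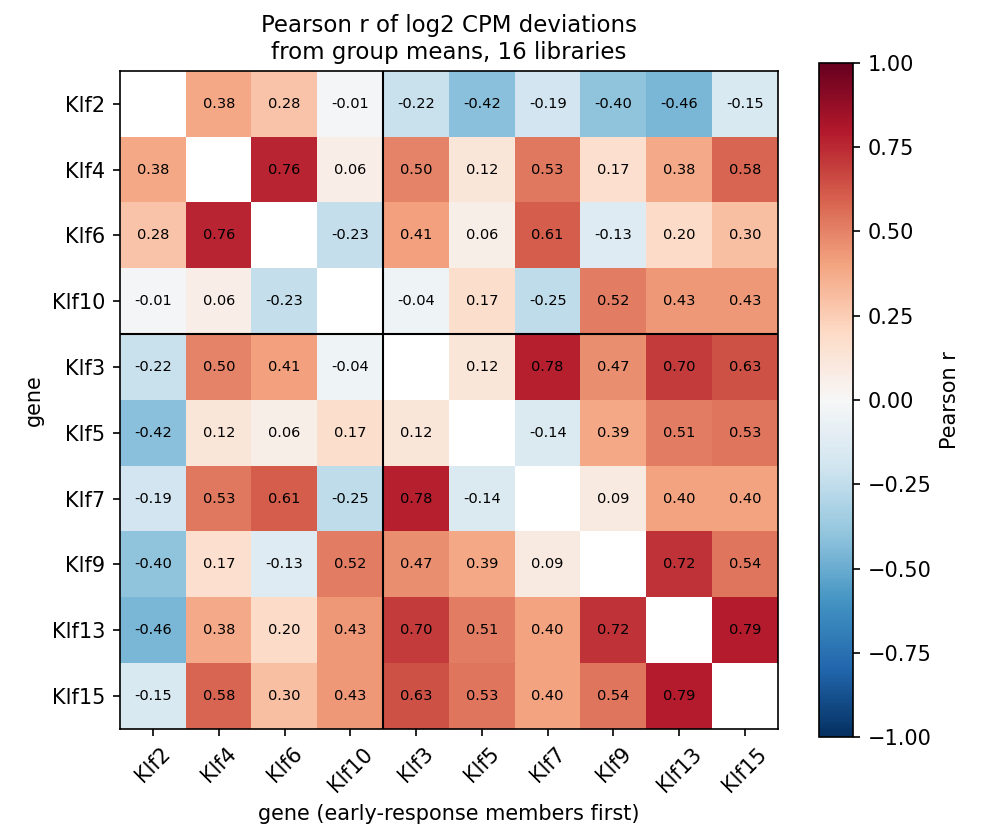
Pearson r between members of their log2 CPM deviations from group means over 16 libraries; lines divide the 4 early-response from the 6 other members. Klf4 and Klf6 (0.76) stand out among early-response members, and Klf13 with Klf15 (0.79) and Klf3 with Klf7 (0.78) among the others, while Klf2 has negative values with all 6 other members.

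Likeness across the 16 libraries was sought among 11116 genes with a mean of at least 1 CPM, unnamed gene models left out. The patterns most like that of Klf2 were those of Apold1 (r = 0.911), Leng9 (0.889) and Bcl6b (0.877). Within groups their r values were 0.694, 0.655 and 0.725. For Klf4 they were Jund (0.921), Nr4a2 (0.907) and the fellow member Klf6 (0.871), with 0.849, 0.774 and 0.759 within groups. For Klf9 they were Dhx15 (0.927), Rbm39 (0.904) and Wdr36 (0.904), and for Klf15 Myog (0.842), Mtch1 (0.827) and Glul (0.822). These genes were picked for their likeness, so their r values carry no test.

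Among genes that growth factors induce along with early-response Krüppel-like factors, 25 of 26 in the table were tested. In untrained Tg against WT muscle 3 were called higher (0.497% of all genes were) and 0 lower, and the median log2FC was 0.38 (21 of 25 positive) against 0.00 for all genes. Egr1, a zinc finger factor, averaged 6.19 ± 3.07 CPM in Tg and 1.58 ± 0.325 CPM in WT (SD, n = 4 each; log2FC 1.97, SE 0.411, adjusted p = 0.038, edgeR), and Ier2 2.35 ± 0.652 and 1.24 ± 0.123 CPM (log2FC 0.92, SE 0.201, adjusted p = 0.0466, edgeR). Fos, a subunit of AP-1, averaged 17.96 ± 14.5 and 3.503 ± 1.44 CPM (log2FC 2.36, SE 0.527, adjusted p = 0.0498, edgeR). For training in Tg the median was -0.86, with 25 of 25 negative and 0 called, and for training in WT 0.05, with 15 of 25 positive and 0 called.

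Genes that act upstream of or with these factors were not called in any comparison (0 of 15 tested). Mapk7 averaged 1.68 ± 0.274 CPM in Tg trained, 2.20 ± 0.337 in Tg untrained, 1.81 ± 0.18 in WT trained and 1.86 ± 0.326 in WT untrained muscle, and had the smallest p of that list for training in Tg (log2FC -0.39, SE 0.154, adjusted p = 0.368, edgeR). In untrained Tg against WT muscle it was Mef2a (log2FC -0.37, SE 0.141, adjusted p = 0.216, edgeR). Of 9 tested endothelial targets of KLF2 and KLF4, 0 were called in any comparison. For training in Tg, 8 of the 9 were negative with a median of -0.22. In untrained Tg against WT muscle 7 of the 9 were positive (median 0.14). Nos3, the endothelial nitric oxide synthase and a target that KLF2 induces, averaged 9.08 ± 2.16 CPM in Tg untrained and 8.28 ± 1.99 CPM in WT untrained libraries (SD, n = 4 each).

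Klf2 and Klf4 are known from endothelium, whose markers are set beside these values. The endothelial markers had 12 of 12 positive log2FC in untrained Tg against WT muscle (median 0.25, 0 called). Their summed level was 293.3 to 369.2 CPM in Tg untrained and 220.1 to 311.4 CPM in WT untrained libraries, lowest in the WT untrained library that stood apart, and none of the 12 was at 0. For training in Tg muscle, where Klf2 and Klf4 had log2FC of -0.97 and -1.40, the endothelial median was 0.02 (7 of 12 positive, 0 called), with sums of 313 to 347.8 CPM in Tg trained and 293.3 to 369.2 CPM in Tg untrained libraries. Macrophage and monocyte markers, another source of Klf2, Klf4 and Klf6, had 9 of 10 negative log2FC for training in Tg (0 called, median -0.62; sums of 30.7 to 43.2 CPM in Tg trained and 35.0 to 65.4 CPM in Tg untrained libraries) and 10 of 10 in untrained Tg against WT muscle (0 called, median -0.42; sums of 35.0 to 65.4 CPM in Tg and 54.8 to 92.5 CPM in WT). Of 10 smooth muscle and pericyte markers, 2 were called higher in untrained Tg against WT muscle, where 0.497% of all genes were. These were Cspg4 (log2FC 0.61, SE 0.11, adjusted p = 0.0185, edgeR) and Notch3 (log2FC 0.54, SE 0.114, adjusted p = 0.0397, edgeR). The median over the list was 0.25, with sums of 639.5 to 674 CPM in Tg and 514.3 to 630.5 CPM in WT libraries. For training in Tg, markers of some further cell types, though not all, also had mostly negative log2FC, with 0 called. Adipocyte markers had 7 of 8 negative (median -2.34). With training averaged over the genotypes, 5 of the 8 were called lower, as were 46 of all 17490 genes. Their sums were 121.5 to 144.1 CPM in Tg trained and 134.6 to 178.9 CPM in Tg untrained libraries. A sum follows its most abundant genes, so these sums need not move with the median. Fibroblast markers had 8 of 8 negative (median -0.31; sums of 480.3 to 755 CPM in Tg trained and 608.2 to 972.9 CPM in Tg untrained libraries), tendon markers 6 of 6 (median -0.64; 87.8 to 167.2 and 151.8 to 288.9 CPM), Schwann cell markers 5 of 6 (median -0.41; 24.2 to 53.7 and 28.4 to 67.8 CPM) and satellite cell markers 3 of 4 (median -0.33; 5.37 to 6.04 and 5.999 to 7.99 CPM), in the same order of groups. In untrained Tg against WT muscle, Schwann cell markers had 6 of 6 positive (median 0.52, 0 called). Their sums were 28.4 to 67.8 CPM in Tg and 23.7 to 38.7 CPM in WT. Satellite cell markers had 4 of 4 positive there (median 0.24, 0 called) and tendon markers 5 of 6 (median 0.20, 0 called). Adipocyte markers had 6 of 8 positive (median 0.17, 0 called) and fibroblast markers 1 of 8 (median -0.13, 0 called). None of these markers was at 0 in any library. For training in Tg, muscle fibre markers had 7 of 9 positive (median 0.07) and erythroid markers 3 of 5 (median 0.03), 0 called. In WT, training went with 6 of 6 negative tendon markers (median -1.16). Adipocyte markers had 7 of 8 negative there (median -1.38) and fibroblast markers 7 of 8 (median -0.43). Schwann cell markers had 3 of 6 negative (median -0.04) and satellite cell markers 1 of 4 (median 0.35), again with 0 called. The part of these cell types in the Klf levels was not tested.

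Of the glucocorticoid-induced genes, a group that Klf9 and Klf15 belong to, 12 were tested. In untrained Tg against WT muscle 1 was called lower, where 43 of all 17490 genes were. It was Sgk1, a kinase gene (log2FC -0.69, SE 0.127, adjusted p = 0.0203, edgeR). Of the list, 9 of 12 were negative and the median was -0.39. Fkbp5, a receptor cochaperone, had -1.001 (SE 0.308, adjusted p = 0.139, edgeR). In trained Tg against WT muscle 12 of 12 were negative (median -0.37, 0 called), while Klf9 had 0.00 and Klf15 -0.06. Of 11 tested KLF15 targets in muscle and liver, 0 were called in any comparison, with medians from -0.07 to 0.14. Pdk4, the kinase that restrains pyruvate dehydrogenase, had the smallest p of them in untrained Tg against WT muscle (log2FC -0.58, SE 0.181, adjusted p = 0.143, edgeR). Of 13 tested clock genes, 0 were called in any comparison, and Ciart, a circadian repressor, had the smallest p for training in both genotypes (log2FC -0.37 in Tg and -0.46 in WT, adjusted p of 0.338 and 0.322, edgeR).

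Of 16 further genes of the Krüppel-like and Sp family, 9 were tested and 0 were called in any comparison. Klf17, Sp5, Sp8 and Sp9 had 0 counts in all 16 libraries, and Klf1, Klf14 and Sp6 at most 9 counts in a library. Klf16 had the smallest p of the list for training in Tg (log2FC -0.51, SE 0.155, adjusted p = 0.243, edgeR) and Sp3 for training in WT (log2FC -0.26, SE 0.054, adjusted p = 0.0958, edgeR). With training averaged over the genotypes, all 10 members had a negative log2FC and 0 were called (0.457% of all genes were called); Klf4 had -0.59 (SE 0.174, adjusted p = 0.142, edgeR) and Klf6 -0.23 (SE 0.082, adjusted p = 0.216, edgeR), the 2 members with an unadjusted p under 0.05, where 7.76% of all genes were lower. DESeq2 called 1 member there, among 367 genes, and limma-voom 0, with 58 genes called.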

How the data were processed

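Expression was measured by RNA-seq in 16 skeletal muscle libraries, 4 in each of 4 groups taken from the labels. Per the labels' protocols, a column kit gave the RNA and a SMARTer mRNA-seq kit the libraries. Per the submitters' processing notes, STAR 2.7.8a, RSEM 1.3.2 and the mm10 build were used; the annotation release and strand are not given in the sources used here. The authors deposited expected counts from RSEM without normalization; the table has 55487 genes, and 12.48% of the values are fractional.

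Expected counts were rounded. Genes were kept with filterByExpr by group (17490) and fitted with edgeR 4.0.16 (R 4.3.3, quasi-likelihood, TMM, a mean per group, no replicate block); 6 contrasts were tested. The members, lists, tests and alternatives were chosen with earlier results of these data known. Genes named are the 10 members, of each list up to 4 called genes or otherwise up to 2 with the smallest p, and the 3 genes most like Klf2, Klf4, Klf9 and Klf15; Nos3, Cspg4 and Notch3 were chosen after their values were seen, as was the comparison each list is described in. Alternatives were RLE size factors, no filter, DESeq2 1.42.0, limma-voom (limma 3.58.1), the replicate number as a block, only the 8 libraries compared, and leaving out single libraries or those above 10 CPM of Alb or Myh7, with the tested genes held fixed. No 2 replicates agreed within sampling noise (lowest chi-square per degree of freedom 7.08). Gene positions and exon lengths came from GENCODE M21 (GRCm38), which held the gene IDs of all 10 members in the same version. A gene that the rule for named genes would give is not reported here. The fits were tested on simulated data.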

Additional observations from a re-analysis of the deposited data

Results flagged for a closer look

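Within each of the 40 sets of 4 libraries (10 members in 4 groups), the highest or lowest value was set against the range of its group. In 4 sets a library lay far from the other 3, where chance gives about 1 in 20 for independent sets. Members share their libraries, so the sets are not independent, and whether 4 of 40 exceeds chance was not tested. Klf10 was 49.36 CPM in WT untrained replicate 2, against 12.79 to 18.71 CPM in the other WT untrained libraries. Klf5 was 2.453 CPM in the same library, against 1.518 to 1.556 CPM in the others. That library also had the highest TMM factor (1.285) and 14.93 CPM of Alb, whose part in these levels was not tested. Klf10 was 19.99 CPM in Tg trained replicate 1, against 12.02 to 13.28 CPM in the other Tg trained libraries. Klf5 was 2.066 CPM in Tg trained replicate 3, against 1.288 to 1.398 CPM in the others.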

How the results depend on the processing

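A single call among the members, Klf2 in untrained Tg against WT muscle, kept its direction and its side of the threshold under 23 of 24 alternatives (log2FC 1.14 to 1.38 without single libraries); without the libraries above 10 CPM of Myh7 the adjusted p was 0.0677. Over all members and comparisons, 1420 alternative values were computed, of which 1352 kept direction and side, 18 newly passed the threshold, 1 no longer passed it and 49 had the other sign, none of them in Klf2 or Klf4 for training in Tg, for Tg against WT in untrained muscle or for the difference. RLE scaling changed no sign and no member's call, and moved the median of all genes by less than 0.01. The cause of the changes below was not tested.

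Genes called numbered 0 for training in Tg, 25 for training in WT, 2 for trained Tg against WT, 130 for untrained Tg against WT, 9 for the difference and 80 for training averaged over genotypes. In that order DESeq2 gave 124, 66, 56, 445, 35 and 367. With only the 8 libraries compared the first 4 were 123, 10, 5 and 40. No filter gave 5 for training in Tg, 1 for trained Tg against WT and 15 for the difference. Without the libraries above 10 CPM of Alb there were 104 for training in Tg, 42 for training in WT and 584 averaged. Without those above 10 CPM of Myh7 there were 9 for training in Tg, 32 for untrained Tg against WT, 4 for the difference and 41 averaged. Leaving out single libraries gave 0 to 93, 16 to 30, 1 to 16, 43 to 138, 6 to 12 and 15 to 389 genes.

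Members called for training in Tg were 1 without the filter, 2 with DESeq2, 3 with only the 8 libraries compared, 2 without the Alb libraries and 0 to 2 without single libraries. For untrained Tg against WT they were 2 with DESeq2, 0 without the Myh7 libraries and 1 to 2 without single libraries. For the difference they were 2 with DESeq2 and 0 to 1 without single libraries, and averaged over genotypes 1 with DESeq2 and 1 without the Alb libraries. The median of the 6 other members for the difference ran from -0.216 to 0.0735 without single libraries, and was -0.106 with all.

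Replicate numbers are shared between groups, and samples of the same number deviated together weakly at most. Of 24 pairs, 6 had a correlation over 0.1 (range -0.153 to 0.176). In 9 of 24 cases the best correlation, among 4 libraries, was with the same number. These included replicates 2, 3 and 4 of Tg trained with Tg untrained muscle (0.0953, 0.117 and 0.176). With the replicate block, 1 gene was called for trained Tg against WT, 66 for untrained Tg against WT and 16 averaged, and the members' calls were as without it (Klf2 adjusted p = 0.032).

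The log2FC had the other sign in the following cases. Without the Alb libraries they were 0.000892 for Klf9 for training in Tg, 0.18 for Klf10 and -0.0373 for Klf7 for training in WT, 0.0932 for Klf15 in trained Tg against WT, 0.284 for Klf10 and 0.142 for Klf15 in untrained Tg against WT, and -0.597 for Klf10 for the difference. Without the Myh7 libraries they were 0.0144 for Klf9 for training in Tg, 0.118 for Klf10 and -0.0394 for Klf7 for training in WT, -0.00578 for Klf5 in trained Tg against WT, 0.334 for Klf10 and 0.0495 for Klf15 in untrained Tg against WT, and -0.586 for Klf10 for the difference. Without single libraries, training in Tg ran from -0.0443 to 0.0123 for Klf9, and training in WT from -0.216 to 0.103 for Klf3, -0.19 to 0.0775 for Klf13, -0.118 to 0.0578 for Klf6 and -0.7 to 0.127 for Klf10. Trained Tg against WT ran from -0.0296 to 0.0267 for Klf9, -0.127 to 0.286 for Klf5, -0.316 to 0.0922 for Klf2 and -0.136 to 0.0903 for Klf15. Untrained Tg against WT ran from -0.0951 to 0.0682 for Klf15, -0.00115 to 0.385 for Klf5 and -0.734 to 0.169 for Klf10. The difference ran from -0.429 to 0.476 for Klf10, -0.329 to 0.109 for Klf5, -0.134 to 0.0987 for Klf15 and -0.219 to 0.0484 for Klf13. Depth limits Klf5 most, at 48 to 149 counts in a library.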
